A study of Mus musculus with 12 samples.

Results

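Interferon-stimulated genes are the genes that cells switch on when an interferon binds its receptor. The 42 described here were the rows of both deposited count tables whose symbol is in a fixed list of well known members of that response, out of 24538 genes. They comprise transcription factors of the pathway, the ubiquitin-like modifier ISG15 and its protease, sensors of foreign nucleic acid, and antiviral or antimicrobial effectors. All 42 had rows in both tables, and all 42 passed the filter on low counts in LSK, in MPP and in the fit of all 12 libraries.

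The study sequenced RNA of LSK cells, the Kit-positive and Sca-1-positive cells without lineage markers that hold the blood stem cells of the marrow, and of cells labelled MPP, for multipotent progenitor. The mice were labelled Tet2 KO (knockout), Tet2 Mut (mutant) and WT (wild type), all on a 129/C57/B6 mixed background and 10 weeks of age. Tet2 oxidises methylated cytosine in DNA, and the title of the series concerns its functions outside catalysis. For each genotype the marrow of 2 mice was pooled and sorted, and each sorted population gave 2 technical libraries, so the 12 libraries form 6 groups of 2. The residues changed in Mut and the gates used to sort MPP are not given in the labels, and the library titles write Lin where the descriptions write MPP. No mouse received an interferon or a microbe, as far as the labels tell. Since the libraries of a group came from a single pool, every error and p-value below measures the spread between technical libraries and not between mice.

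Type I interferons signal through a receptor whose kinases phosphorylate STAT2. STAT2 and IRF9 are part of a complex that binds a promoter element known as the interferon-stimulated response element, or ISRE. Interferon gamma acts through its own receptor, and many of its target promoters hold the gamma-activated site, or GAS. In blood stem cells interferons are known to drive exit from quiescence, and a basal level of interferon-stimulated transcripts in stem cells without infection is known from mouse and human.

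Promoter windows were available for 30 of the 42 genes in RefSeq (GRCm38.p6), running from 250 bases before to 50 bases after each annotated start. The ISRE core, spelled GAAANNGAAA and searched on both strands, stood in a window of 16 of these 30 genes (53.3%), against 3.99% of all 27025 genes with a window. The GAS core, spelled TTCNNNGAA and searched likewise, stood in 9 of the 30 (30.0%), against 9.55% of all genes. A match is a run of letters and not a measured binding site. Windows of 4 genes are shown because their levels separated the populations or genotypes in the results that follow, with every ISRE core in capitals.
Isg15, chr4:156200769-156201068, minus strand: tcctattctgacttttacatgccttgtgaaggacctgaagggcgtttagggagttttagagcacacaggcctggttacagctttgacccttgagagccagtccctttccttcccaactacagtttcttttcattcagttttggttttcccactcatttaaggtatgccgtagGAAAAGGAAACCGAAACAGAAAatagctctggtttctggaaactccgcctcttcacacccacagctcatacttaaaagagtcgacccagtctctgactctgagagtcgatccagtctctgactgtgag
Ifi203, chr1:173942443-173942742, minus strand: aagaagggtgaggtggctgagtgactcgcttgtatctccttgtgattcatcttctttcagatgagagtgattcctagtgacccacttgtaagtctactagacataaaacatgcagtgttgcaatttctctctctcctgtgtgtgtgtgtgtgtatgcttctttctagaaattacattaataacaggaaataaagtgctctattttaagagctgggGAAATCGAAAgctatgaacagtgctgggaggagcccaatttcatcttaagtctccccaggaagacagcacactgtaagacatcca
Trim30a, chr7:104465144-104465443, minus strand: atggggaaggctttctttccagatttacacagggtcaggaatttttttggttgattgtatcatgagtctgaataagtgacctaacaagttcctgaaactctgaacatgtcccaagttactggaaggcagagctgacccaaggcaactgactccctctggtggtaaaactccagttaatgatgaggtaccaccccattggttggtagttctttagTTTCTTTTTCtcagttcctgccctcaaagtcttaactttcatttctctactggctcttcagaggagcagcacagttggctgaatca
Eif2ak2, chr17:78882523-78882822, minus strand: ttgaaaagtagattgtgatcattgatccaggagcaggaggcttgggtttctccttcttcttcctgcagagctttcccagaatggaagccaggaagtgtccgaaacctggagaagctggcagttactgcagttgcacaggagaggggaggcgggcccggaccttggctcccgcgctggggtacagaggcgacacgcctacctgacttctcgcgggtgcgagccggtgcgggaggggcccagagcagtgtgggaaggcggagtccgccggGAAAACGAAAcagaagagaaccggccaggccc

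In the Isg15 window 3 overlapping cores make up the capitals, the nearest of them starting 66 bases before the annotated start. The Ifi203 core starts 35 bases before the start, and the Trim30a core, which reads on the opposite strand, starts 36 bases before it. The Eif2ak2 core lies 18 bases inside the transcribed side. Ifi203 and Trim30a each have another annotated start, whose window is not shown. The window of the other Ifi203 start, which lies further upstream, held neither core. That of the other Trim30a start held 1 ISRE core. The windows of Ifi47, Ifi209, Ifi44, Oasl1, Oasl2 and Xaf1 held neither core. No window was at hand for Usp18, Oas2, Mx1, Mx2, Ifi27, Ifi204, Iigp1, Dhx58, Rtp4, Zbp1, Parp9 and Parp14.

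The genes lie on 16 chromosomes of GRCm38 (GENCODE M21), and 22 of them fall into 9 clusters whose neighbours are less than 500000 bases apart. Ifi209, Ifi204 and Ifi203 sit together on chromosome 1, and Ifit2, Ifit3 and Ifit1 on chromosome 19. Members of such families share sequence, which can move reads between copies in counting. Of the distinct runs of 50 bases in Ifit3 transcripts, 51.2% also occur in another gene, mostly Ifit3b, and for Oas1a it is 57.6%, mostly with Oas1g. For Ifi209 the share is 33.7% (mostly Ifi214), for Ifi204 20.0% and for Ifi203 12.4% (both mostly Mndal). Igtp and Irgm2 overlap in 162 exon bases on the same strand, Parp9 and Dtx3l in 458 on opposite strands, and 16.8% of the exon bases of Ifi35 lie opposite Gm11626. The strand setting of the counting is not given, so the values of these genes are uncertain to that extent.

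Gene counts per library ran from 9181027 in LSK WT to 23532847 in MPP Mut, and 12470 and 12614 genes were detected in the LSK WT libraries, against 13333 to 14264 in the other 10. The LSK WT libraries correlated with each other at r = 0.879 across genes, against 0.957 to 0.968 within the other groups. Among the interferon-stimulated genes, the median gap between the 2 libraries was 0.85 log2 units in LSK WT, where 18 of 42 genes differed by more than 1 unit, against median gaps of 0.26 to 0.44 in the other 5 groups. Rn45s, a ribosomal RNA precursor, took 2.47% and 2.51% of gene counts in LSK KO, 0.981% and 1.09% in LSK Mut, 3.65% and 3.7% in LSK WT and 0.873% to 1.1% in MPP. Tet2 itself had 29.2 and 31.8 CPM (gene counts as parts per 1e6 of a library size scaled by TMM, a trimmed mean of ratios between libraries) in LSK KO, 43.5 and 44.4 in LSK Mut and 87.3 and 62.7 in LSK WT. In MPP the Tet2 level was 34.9 and 34.9 CPM in KO, 40.2 and 37.4 in Mut and 39.6 and 29.4 in WT, so it did not separate KO from WT there. Which exons of Tet2 were targeted is not given in the labels.

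The labels of the populations were set against their markers. Ly6a, which encodes Sca-1, had 58.4 to 163 CPM in the LSK libraries, against 10.4 to 20.6 in MPP. Flt3, a receptor of multipotent progenitors, had 718 to 1143 CPM in LSK, against 79.2 to 133 in MPP. Markers of granulocyte-monocyte progenitors summed to 2039 to 6125 CPM in LSK, against 47920 to 62850 in MPP, and neutrophil, mast cell and basophil, and erythroblast markers were also far higher in MPP libraries. Of the 10 genes on the list for the LSK gate and its progenitors, 7 were called higher in LSK in KO, 8 in Mut and 7 in WT. Called lower were Il7r, a receptor of lymphoid progenitors, in Mut and WT, and Cd48 in WT. MPP is used below only as the name of the group. In such bulk RNA, fewer cells of a type and less RNA per cell cannot be told apart.

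**Figure D1:**
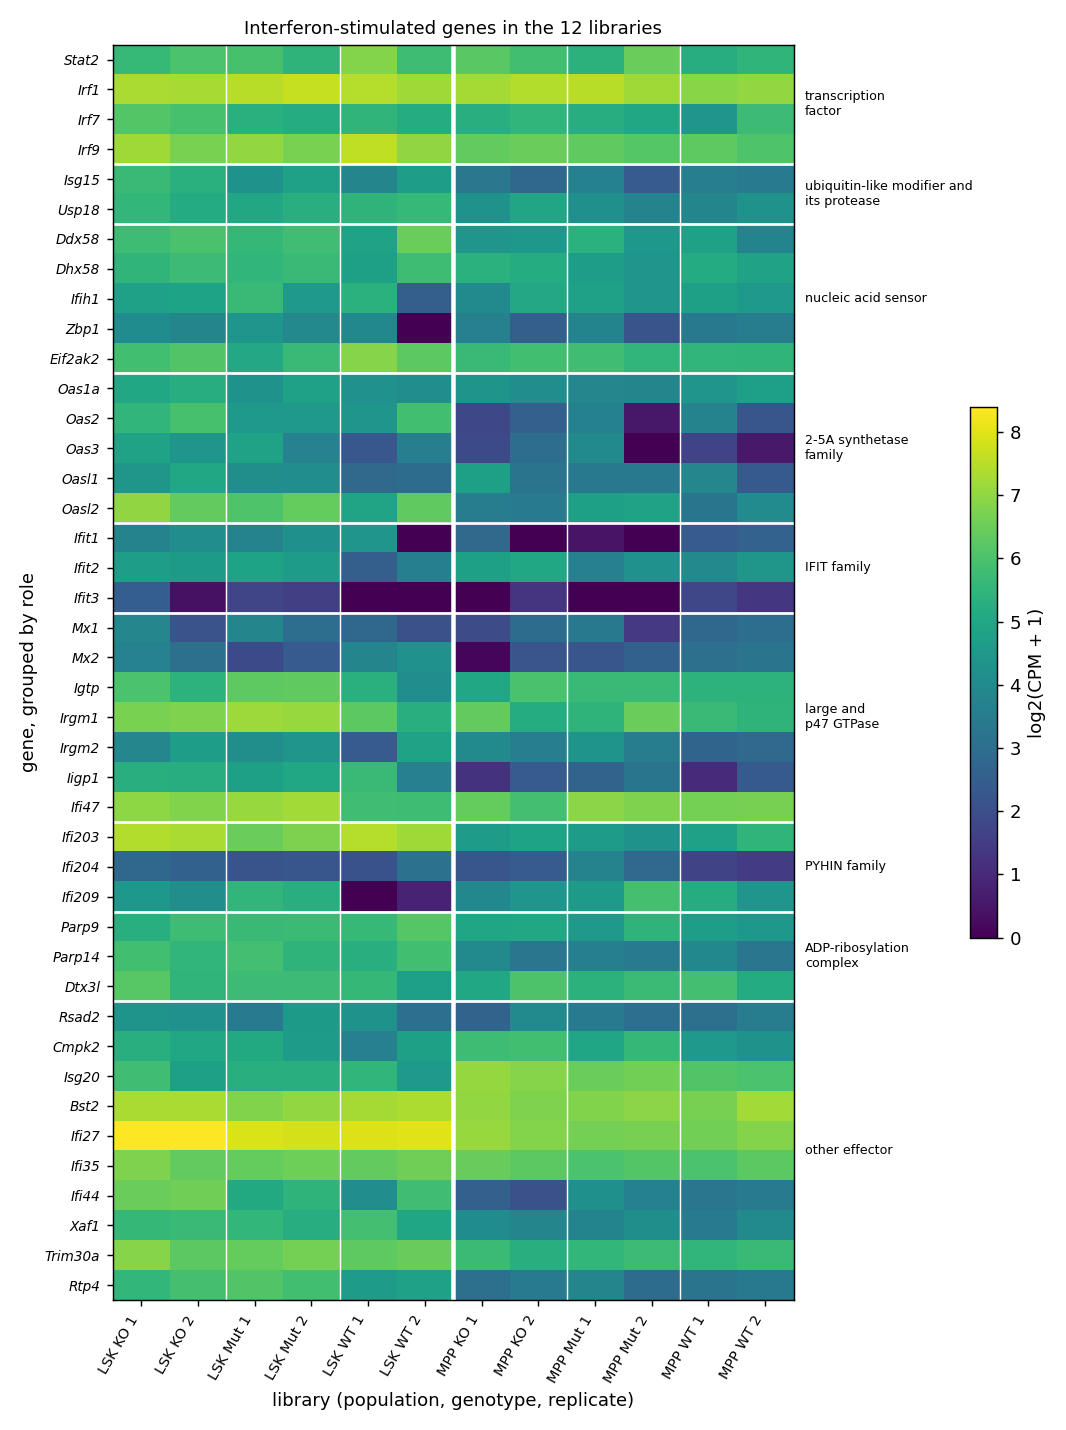
Level of each of the 42 genes (rows, grouped by role) in each of the 12 libraries (columns), as log2(CPM + 1) from dark (0) to yellow (above 8). Ifi27, Bst2 and Irf1 are bright in all columns, Ifi203, Rtp4 and Parp14 are brighter in the 6 LSK columns, and Ifit3 is dark in most.

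Every library contained RNA of these genes, at levels that differed widely between members. Per kilobase of exon, Ifi27, a small membrane protein, was the highest in LSK KO at 227 CPM per kb and in LSK Mut at 160 CPM per kb. Bst2, which encodes tetherin, a protein that holds budding virus at the cell surface, was the highest in LSK WT at 175 CPM per kb and in MPP at 132 in KO, 129 in Mut and 139 in WT. Ifit3 was the lowest per kilobase in LSK KO at 1.44 CPM per kb, in MPP KO at 0.402, and in LSK WT and MPP Mut, where it had no count at all. The lowest in LSK Mut was Mx2 at 0.977 CPM per kb, and in MPP WT it was Oas3 at 0.196. Summed over the 42 genes, the level was 2758 and 2535 CPM in LSK KO, 2308 and 2348 in LSK Mut and 2194 and 2083 in LSK WT. In MPP the sum was 1558 and 1516 CPM in KO, 1494 and 1523 in Mut and 1303 and 1374 in WT. The summed level of the 3 LSK groups did not overlap with that of the 3 MPP groups.

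In LSK cells none of the 42 genes passed the test for KO against WT. With edgeR's quasi-likelihood test and Benjamini-Hochberg adjustment, 0 of 42 had an adjusted p below 0.05, a share that was 0.0456% over all 13170 genes tested. At an unadjusted p below 0.05 there were 10 of 42, all with positive differences (8.03% of all genes), and DESeq2 called 3 of the 42 and 4.5% of all genes. The median log2 difference over the 42 genes was 0.42, against 0 over all genes tested, and 32 of 42 were positive, against 50% of all genes. The KO libraries lay above both WT libraries in 16 genes and below both in 2, against backgrounds of 25% and 18% of all genes. Without LSK WT replicate 1, 9 of the 42 passed, all higher, against 6.52% of all genes called higher in that fit. Without LSK WT replicate 2 it was 11, against 7.63% of all genes.

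The 4 genes with the lowest p among these uncalled differences in LSK KO were Ifi47, Ifi209, Oasl1 and Rtp4. Ifi47, an immunity-related GTPase, had 125 and 110.0 CPM in LSK KO, against 55.5 and 53.8 in LSK WT. Both KO libraries lay above both WT libraries, with a log2 difference of 1.09 (SE 0.20) and an adjusted p of 0.171. Ifi209, a PYHIN protein of the family that binds DNA through HIN domains, had 21.2 and 16.9 CPM in LSK KO, against 0 and 0.797 in LSK WT, where its 2 libraries held 0 and 10 counts. Its groups did not overlap either, but the adjusted p was 0.178. Oasl1, a catalytically inactive relative of the oligoadenylate synthetases that restrains translation of IRF7 in mouse, had 20.7 and 32.0 CPM in LSK KO, against 6.54 and 6.78 in LSK WT (log2 difference 1.96, SE 0.53, adjusted p = 0.239). Rtp4, a chaperone of receptors that is also an antiviral effector, had 45.6 and 59.0 CPM in LSK KO, against 24.0 and 26.7 in LSK WT (log2 difference 1.03, SE 0.32, adjusted p = 0.27). In none of these genes did the groups overlap.

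Ifit3, of the family that binds foreign RNA ends, had 86 and 4 counts in LSK KO and 0 counts in both LSK WT libraries. With 3 counts in the pair of WT libraries taken as the floor, its level in LSK KO was 20.6-fold higher in the pooled counts. However, 1 of the KO libraries held nearly all of them. The floor covers counting error only. Ifit1 had 192 and 0 counts in the same pair of WT libraries, so a library can miss a gene and the fold of Ifit3 is not a firm bound. Ifit2, a relative of Ifit3, had 24.5 and 22.8 CPM in LSK KO, against 4.86 and 11.4 in LSK WT (adjusted p = 0.321). Isg15, which is conjugated to proteins of infected cells, had 49.3 and 38.9 CPM in LSK KO, against 13.5 and 25.03 in LSK WT (adjusted p = 0.346). These groups did not overlap, and none passed the test. Irf9 and Stat2, which are part of the complex that binds the ISRE, had log2 differences of -0.37 (SE 0.27) and -0.59 (SE 0.40) for LSK KO against WT.

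Mut against WT in LSK was the only genotype comparison of 6 in which any of the 42 genes passed the test. Ifi47 and Ifi209 were higher in LSK Mut, 2 of 42, against 0.539% of all genes tested called higher and 0.737% called lower. Ifi47 had 134 and 150.3 CPM in LSK Mut, against 55.5 and 53.8 in LSK WT, a 2.57-fold difference (log2 difference 1.36, SE 0.20, adjusted p = 0.0328). Ifi209 had 45.4 and 37.8 CPM in LSK Mut, against 0 and 0.797 in LSK WT (log2 difference 6.56, SE 1.10, adjusted p = 0.0445), and the size of that difference rests on 10 counts in a single WT library. In both genes the Mut libraries lay above both WT libraries. Both calls were lost when any of the LSK KO or LSK Mut libraries was left out, when only Mut and WT were fitted and under the replicate block, where 0 members were called in each case. Without LSK WT replicate 1 the count was 11, against 17.4% of all genes, and without replicate 2 it was 12, against 18.8%. DESeq2 called 8 (5 higher and 3 lower, against 5.14% and 5.36% of all genes). Scaling to the spike-in RNAs gave 12, all higher, a share of the 42 that lay near the 22.6% of all genes called higher by it.

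At an unadjusted p below 0.05 there were 12 of the 42 in LSK Mut (19.1% of all genes), 8 on the high side and 4 on the low side. The GTPases Igtp and Irgm1, which act on vacuoles that hold microbes, were on the high side. Igtp had 77.7 and 79.5 CPM in LSK Mut, against 39.1 and 16.2 in LSK WT (adjusted p = 0.153). Irgm1 had 141 and 137 CPM in LSK Mut, against 76.9 and 38.0 in LSK WT (adjusted p = 0.11). Rtp4 had 68.9 and 57.3 CPM in LSK Mut, against 24.0 and 26.7 in LSK WT (adjusted p = 0.0978). None of these groups overlapped. Ifit2 had 28.5 and 23.1 CPM in LSK Mut, against 4.86 and 11.4 in LSK WT. Ifit3 had 42 and 37 counts in LSK Mut, against 0 in both LSK WT libraries. Neither of these passed, and their groups did not overlap.

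On the low side in LSK Mut stood Ifi203, Eif2ak2, Mx2 and Bst2. Ifi203, a PYHIN relative of Ifi209 and its neighbour on chromosome 1, had 88.6 and 106 CPM in LSK Mut, against 176 and 147 in LSK WT (log2 difference -0.74, SE 0.19, adjusted p = 0.102). Eif2ak2, which encodes PKR, the kinase that halts translation on sensing double-stranded RNA, had 32.3 and 50.8 CPM in LSK Mut, against 115 and 76.4 in LSK WT (log2 difference -1.22, SE 0.34, adjusted p = 0.132). Mx2, annotated as a polymorphic pseudogene, had 2.69 and 4.38 CPM in LSK Mut, against 13.2 and 18.1 in LSK WT (adjusted p = 0.171). These groups did not overlap, and the adjusted p-values did not pass. Markers of granulocyte-monocyte progenitors moved with genotype in the same libraries, summing to 5073 and 4782 CPM in LSK KO, 6125 and 5892 in LSK Mut and 2039 and 2425 in LSK WT. Of these 6 marker genes, none at 0 in any LSK library, 1 was called higher in KO and 3 in Mut against WT. Of 6 mast cell and basophil markers 1 was called higher in KO and 1 in Mut. In Mut 1 of 10 LSK gate genes and 1 of 6 T and NK cell markers tested were also called higher. The part of these cells in the differences above was not tested. Over all 42 interferon-stimulated genes the median log2 difference of Mut was 0.19, against 0.01 over all genes. Mut libraries lay above both WT libraries in 14 genes and below both in 6, against 26.8% and 20.3% of all genes.

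**Figure D2:**
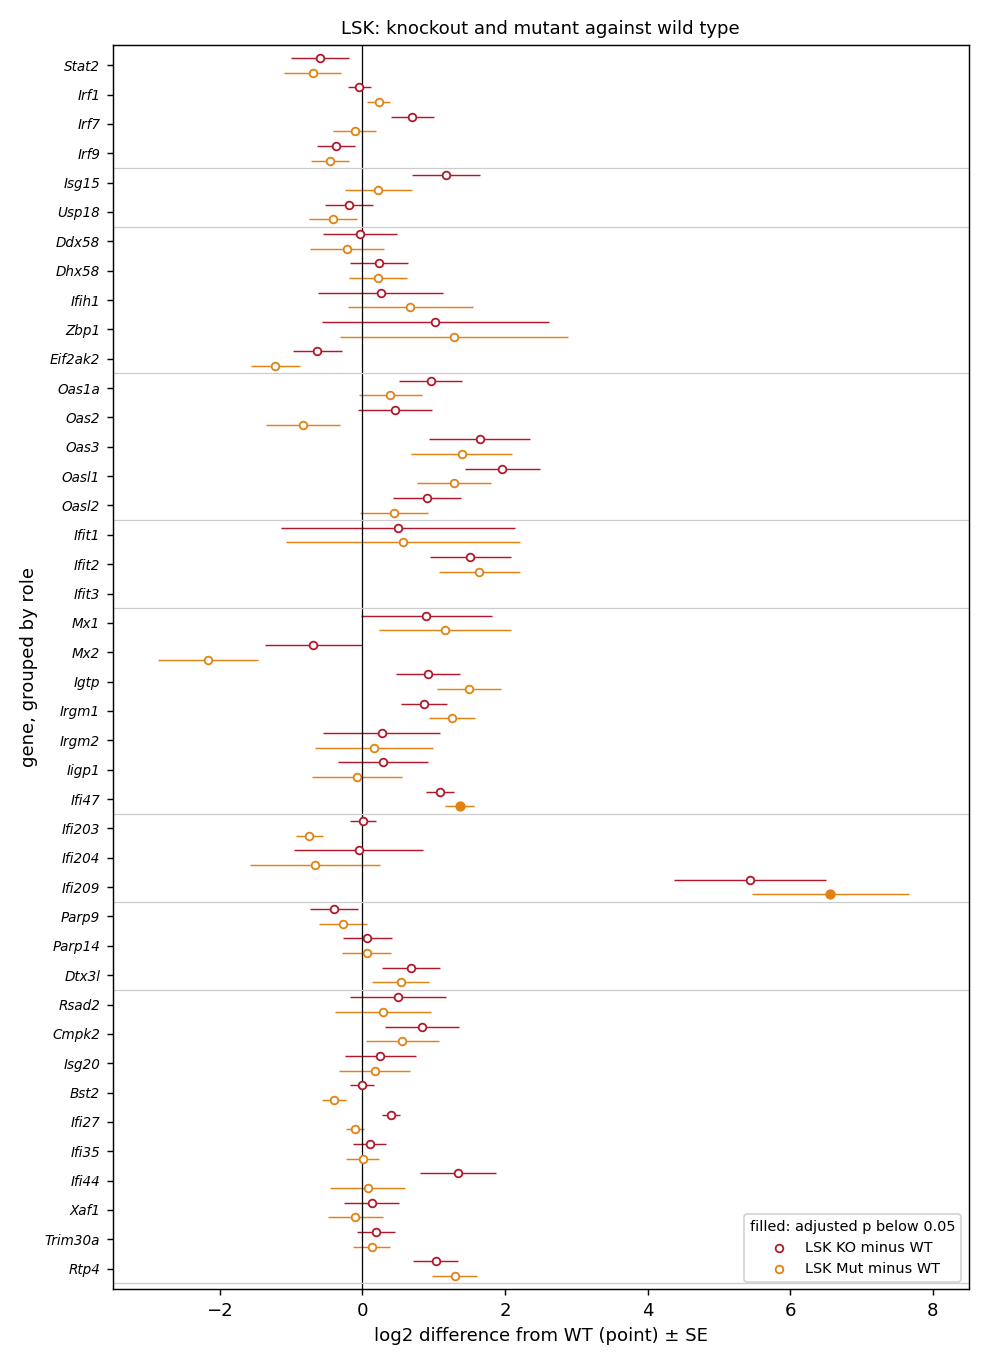
Fitted log2 difference from WT in LSK cells (points) with its standard error (bars) for KO and Mut, 42 genes by role; filled points have an adjusted p below 0.05, and Ifit3, with 0 counts in WT, is left blank. Only Ifi47 and Ifi209 have a filled point, both for Mut, at 1.36 and 6.56.

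Both genotypes were compared with the same pair of WT libraries, so the values of KO and Mut against WT are not independent of each other. Set directly against Mut, LSK KO showed 0 of 42 genes past the test with edgeR (0.0607% of all genes). There were 5 at an unadjusted p below 0.05 (4.24% of all genes) and 1 by DESeq2 (0.752% of all genes). All 5 were on the high side in KO. Ifi203 had 171 and 158 CPM in LSK KO, against 88.6 and 106 in LSK Mut (log2 difference 0.76, SE 0.19, adjusted p = 0.692). Ifi27 had 335 and 329.9 CPM in LSK KO, against 238 and 231 in LSK Mut (log2 difference 0.50, SE 0.12, adjusted p = 0.697), and its difference was -0.084 under spike-in scaling. Irf7, the factor that amplifies type I interferon production, had 70.0 and 60.7 CPM in LSK KO, against 39.1 and 35.3 in LSK Mut (log2 difference 0.81, SE 0.30, adjusted p = 1). Oas2, which makes the oligoadenylates that activate RNase L, had 45.4 and 60.6 CPM in LSK KO, against 21.9 and 21.6 in LSK Mut (log2 difference 1.28, SE 0.53, adjusted p = 1). The groups of these 4 genes did not overlap. The KO libraries lay above both Mut libraries in 14 of the 42 genes and below both in 5, against 21.7% and 21.5% of all genes.

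In MPP cells none of the 42 genes passed the test in any of the 3 genotype comparisons. For KO against WT, edgeR called 0 of 42 (0.363% of all 12947 genes), 5 had an unadjusted p below 0.05 (8.47% of all genes), and DESeq2 called 2 (2.1% of all genes). Erythroblast markers moved in the same comparison, summing to 710 and 722 CPM in MPP KO, against 324 and 386 in MPP WT. Of the 8 genes on that list, 4 were at 0 in every MPP library, 4 were tested and 3 were called higher in KO. Of 6 granulocyte-monocyte progenitor markers 2 were called lower in KO, and of 6 mast cell and basophil markers 3 were. Of 8 monocyte and macrophage markers tested 1 was called lower. The part of these cells was not tested. Isg20, an exonuclease that degrades single-stranded RNA, had 133 and 116 CPM in MPP KO, against 68.9 and 63.6 in MPP WT (log2 difference 0.90, SE 0.17, adjusted p = 0.115). Cmpk2, a mitochondrial nucleotide kinase that is a neighbour of Rsad2 on chromosome 12, had 53.6 and 56.2 CPM in MPP KO, against 22.5 and 18.6 in MPP WT (log2 difference 1.41, SE 0.30, adjusted p = 0.169). Both genes had groups that did not overlap. Ifi47 had 83.4 and 57.7 CPM in MPP KO, against 99.0 and 101 in MPP WT (log2 difference -0.50, SE 0.21, adjusted p = 0.565). Irf1, a factor that responds chiefly to interferon gamma, had 151 and 171 CPM in MPP KO, against 118 and 130.1 in MPP WT (log2 difference 0.37, SE 0.16, adjusted p = 0.567). The KO libraries lay above both WT libraries in 14 of 42 genes and below both in 6, against 19.9% and 20.1% of all genes.

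For MPP Mut against WT, edgeR called 0 of 42 (0.224% of all genes), and 7 had an unadjusted p below 0.05 (9.75% of all genes). DESeq2 called 0 (2.33% of all genes). Scaling to the spike-ins, which moved the median of all genes by -0.59 log2 units in this comparison, called 4 lower, against 17.6% of all genes. Neutrophil markers summed to 1068 and 1074 CPM in MPP Mut, against 2041 and 2136 in MPP WT. Of these 6 genes, none at 0 in an MPP library, 3 were called lower in Mut. Of 6 granulocyte-monocyte progenitor markers 3 were called lower, and of 6 mast cell and basophil markers 2 were called higher and 1 lower. The part of these cells was not tested. Cmpk2 had 30.2 and 47.1 CPM in MPP Mut, against 22.5 and 18.6 in MPP WT (log2 difference 0.90, SE 0.30, adjusted p = 0.394). Oasl2, another relative of the oligoadenylate synthetases, had 26.4 and 27.7 CPM in MPP Mut, against 8.66 and 15.4 in MPP WT (log2 difference 1.17, SE 0.40, adjusted p = 0.407). Isg20 had 90.1 and 96.9 CPM in MPP Mut, against 68.9 and 63.6 in MPP WT (log2 difference 0.49, SE 0.17, adjusted p = 0.407), and -0.088 under spike-in scaling. These groups did not overlap. Ifi204, a PYHIN protein, had 12.6 and 6.25 CPM in MPP Mut, against 2.33 and 1.80 in MPP WT (log2 difference 2.18, SE 0.76, adjusted p = 0.407). Ifit3 had 0 counts in both MPP Mut libraries, against 2.47 and 1.501 CPM in MPP WT, and was not called. Taking 3 counts in the pair of Mut libraries as the floor, it was 26.0-fold lower in Mut. That floor covers counting error only. Oas3 had 339 and 0 counts in the same pair of libraries, so a library can miss a gene and the fold is not a firm bound. The Mut libraries lay above both WT libraries in 11 of 42 genes and below both in 6, against 19.8% and 19.4% of all genes.

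For MPP KO against Mut, edgeR called 0 of 42 (0.239% of all genes), and 7 had an unadjusted p below 0.05 (9.48% of all genes). DESeq2 called 0 (2.11% of all genes). Spike-in scaling, with a shift of 0.65 log2 units in the median of all genes, called 9 higher, a share of the 42 below the 25% of all genes that it called higher. The neutrophil markers summed to 2257 and 2303 CPM in MPP KO, against 1068 and 1074 in MPP Mut, and 3 of the 6 were called higher in KO. Of 6 mast cell and basophil markers 1 was called higher in KO and 4 lower. The part of these cells was not tested. Oasl2 had 10.4 and 10.1 CPM in MPP KO, against 26.4 and 27.7 in MPP Mut (log2 difference -1.40, SE 0.40, adjusted p = 0.331). Ifi44, a cytoplasmic antiviral protein, had 5.004 and 3.20 CPM in MPP KO, against 17.7 and 11.8 in MPP Mut (log2 difference -1.85, SE 0.54, adjusted p = 0.343). Both had groups that did not overlap. Ifi47 had 83.4 and 57.7 CPM in MPP KO, against 121 and 107 in MPP Mut (log2 difference -0.70, SE 0.21, adjusted p = 0.352). Dhx58, which encodes the RNA helicase LGP2, had 40.4 and 35.8 CPM in MPP KO, against 24.7 and 20.0 in MPP Mut (log2 difference 0.77, SE 0.29, adjusted p = 0.467). The KO libraries lay above both Mut libraries in 10 of 42 genes and below both in 7, against 20.3% and 19.9% of all genes.

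**Figure D3:**
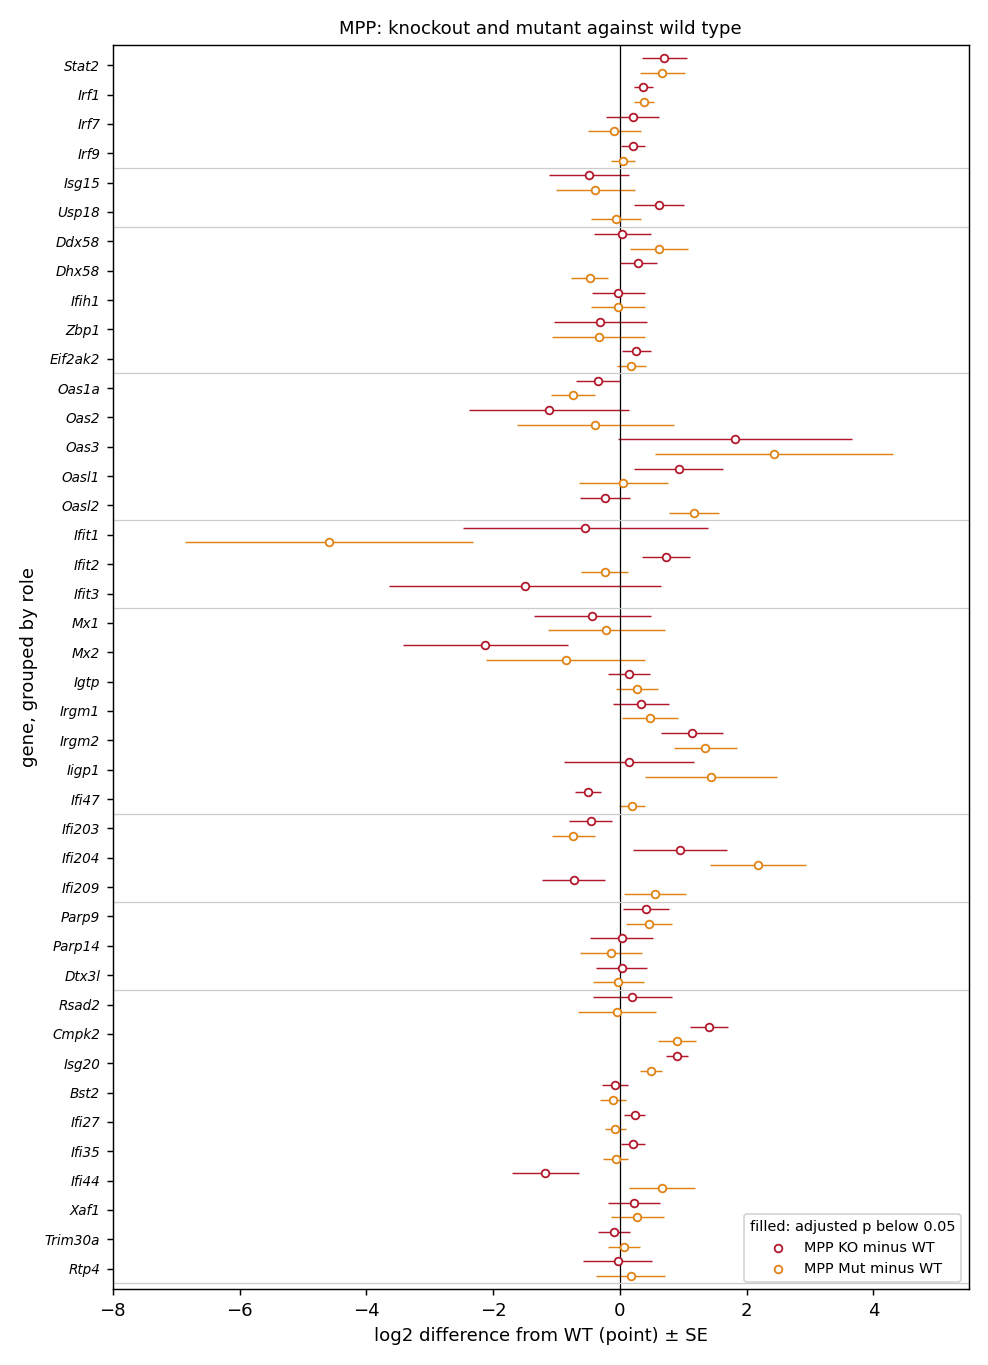
Fitted log2 difference from WT in MPP cells (points) with its standard error (bars) for KO and Mut, 42 genes by role; the Mut point of Ifit3, with 0 counts in Mut, is left out. No point is filled, as none had an adjusted p below 0.05; Cmpk2 lies at 1.41 for KO and 0.90 for Mut.

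Whether a genotype's effect differed between the populations was tested as an interaction over all 12 libraries. The KO effect differed for 2 of 42 genes (0.727% of all 14033 genes), both with a higher difference in LSK. For Ifi47 the KO effect in LSK exceeded that in MPP by 1.60 log2 units (SE 0.29, adjusted p = 0.0411), with log2 differences of 1.09 in LSK and -0.50 in MPP from the fits within each population. For Ifi209 the KO effect exceeded that in MPP by 6.16 (SE 1.15, adjusted p = 0.0434). The Mut effect differed for 1 of 42, a share near the 2.53% of all genes. This was again Ifi209, by 6.01 (SE 1.14, adjusted p = 0.0218). Both Ifi209 values rest on the LSK WT libraries with 0 and 10 counts. The 2 calls for KO were lost when any library outside LSK WT was left out, under the replicate block and under spike-in scaling. The Ifi209 call for Mut was lost when any Mut library or any MPP WT library was left out. For KO against Mut, edgeR called 0 of 42 (0.0641% of all genes). Ifi44 and Oasl2 had an unadjusted p below 0.05, 2 of 42, a share below the 6.38% of all genes. DESeq2 called 1 of the 42 (0.805% of all genes). Ifi44 had a log2 difference of 1.27 in LSK and -1.85 in MPP between KO and Mut, an interaction of 3.11 (SE 0.74, adjusted p = 0.303).

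**Figure D4:**
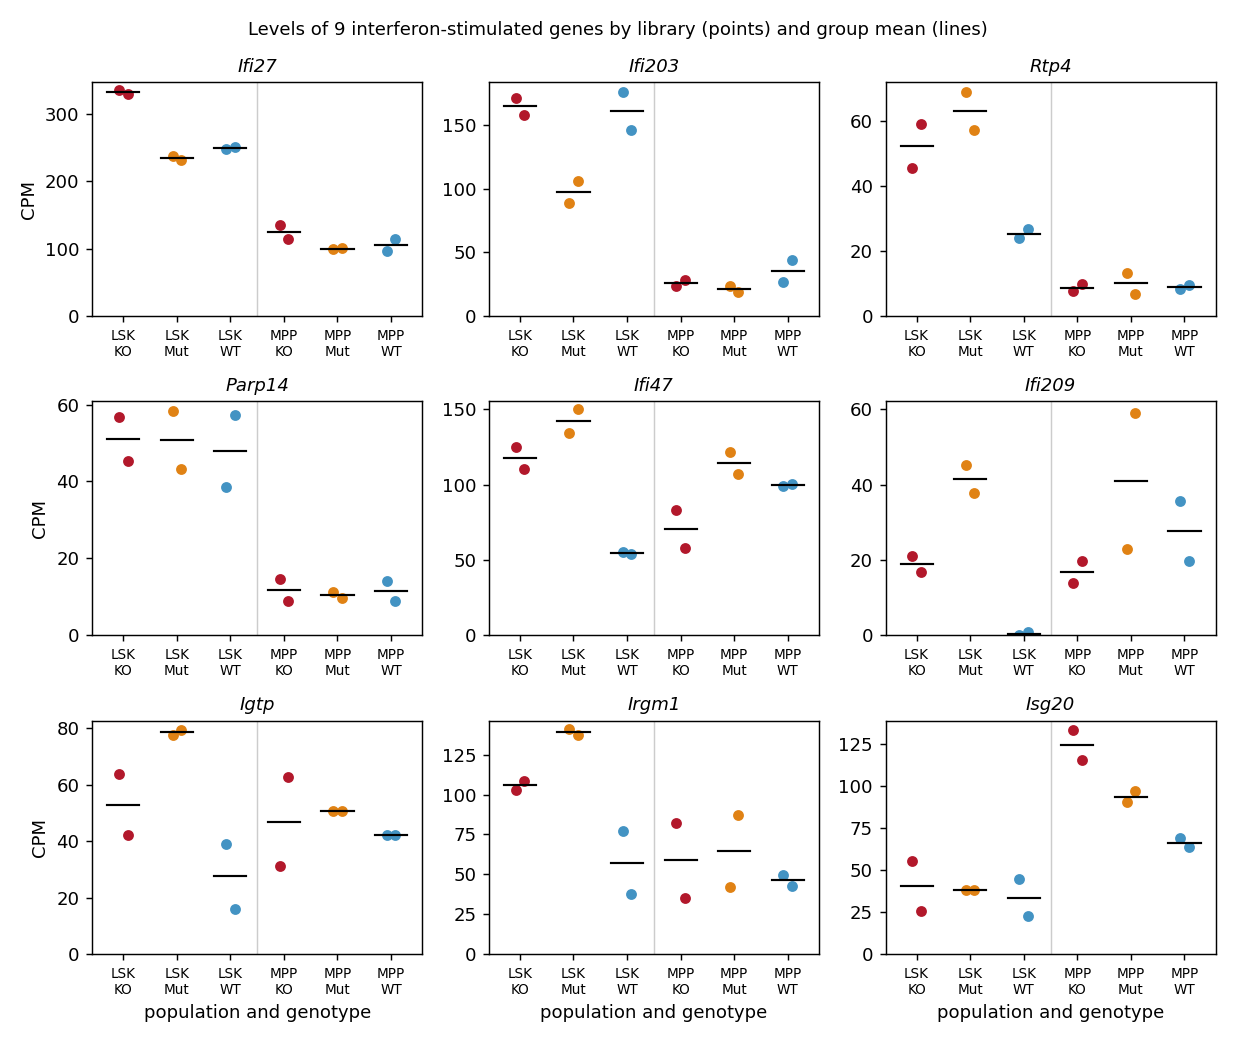
CPM of 9 genes in each library (points) with the group mean (line), LSK groups left and MPP groups right, each as KO, Mut and WT. Ifi27, Ifi203, Rtp4 and Parp14 are higher in all LSK libraries; the Ifi47 and Ifi209 panels show low LSK WT libraries, at 55.5 and 53.8 CPM and at 0 and 0.797 CPM.

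Between populations more of these genes changed. In LSK against MPP, 12 of 42 were higher in KO (7.03% of all genes), 5 in Mut (3.55%) and 13 in WT (10.2%), while 1 was lower in KO (8.14%), 0 in Mut (5.21%) and 2 in WT (13.7%). At least 1 genotype called 16 of 42 higher (38.1%), against 12.8% of all genes, and 3 lower, against 16.1%. The 5 genes called higher in all 3 genotypes (11.9%, against 2.19% of all genes) were Ifi27, Ifi203, Xaf1, Rtp4 and Parp14. All 6 LSK libraries lay above all 6 MPP libraries in 12 of 42 genes (28.6%), against 8.63% of all genes. These were Irf9, Isg15, Usp18, Oas2, Oasl2, Ifi27, Ifi203, Iigp1, Xaf1, Trim30a, Rtp4 and Parp14. The median log2 difference over the 42 genes was 0.78 in KO, 0.80 in Mut and 0.83 in WT, against 0.05, 0.03 and 0 over all genes.

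These counts moved with single libraries. In KO, 6 genes passed without LSK KO replicate 1 and 8 without LSK KO replicate 2, MPP KO replicate 1 or MPP KO replicate 2, while 7.02% to 7.36% of all genes were called in these fits. In Mut, 3 passed without LSK Mut replicate 1 or MPP Mut replicate 2, where 3.68% and 4.28% of all genes were called. In the same genotype 12 passed without LSK WT replicate 1, LSK WT replicate 2 or both, where 16.1% to 16.3% of all genes were called. In WT, 6 passed without MPP WT replicate 1 (15.5% of all genes) and 7 without MPP WT replicate 2 (14.5%). The calls that held in all 12 fits with a library left out were those of Ifi203 and Ifi27 in every genotype, Rtp4 in KO and Mut, Oasl2 and Ifi44 in KO and Ifi209 in WT. When only the WT groups were fitted, the WT calls of Ifi203 and Ifi27 remained and the other WT calls were lost. A gene that passed in 1 genotype and not in another was not thereby shown to differ between them, and the interactions above are the test of that.

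These are differences relative to the bulk of transcripts. The spike-in RNAs took 0.0822% to 0.229% of counts in LSK and 3.16% to 5.15% in MPP. Scaling to them moved the median of all genes by 4.66 log2 units in KO, 5.88 in Mut and 4.17 in WT, and called 42, 42 and 40 of the 42 genes higher in LSK and 0 lower (85.4%, 89.5% and 81.5% of all genes called higher), against 12 and 1, 5 and 0, and 13 and 2 on the main scale. The amount of spike-in RNA added per cell is not given in the labels. The granulocyte-monocyte progenitor markers that were higher in MPP moved with every result in this comparison, and their part in it was not tested.

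Among the transcription factors, Irf9 passed the test in WT. It had 191 and 126 CPM in LSK WT, against 78.8 and 66.9 in MPP WT (log2 difference 1.12, SE 0.25, adjusted p = 0.00735). In KO it had 145 and 103 CPM in LSK, against 81.2 and 87.7 in MPP, and in Mut 130.1 and 104 in LSK, against 79.6 and 72.0 in MPP. The groups did not overlap in any genotype. Irf1 had 147 to 201 CPM over the LSK libraries, against 118 to 179 in MPP, and Stat2 had 42.9 to 113 CPM in LSK, against 36.8 to 87.4 in MPP. Neither passed the test in any genotype, nor did Irf7.

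Isg15 passed in KO, with 49.3 and 38.9 CPM in LSK KO, against 9.20 and 6.01 in MPP KO, a 5.79-fold difference (log2 difference 2.53, SE 0.58, adjusted p = 0.0137). In Mut it had 18.8 and 27.0 CPM in LSK, against 11.9 and 4.34 in MPP, and in WT 13.5 and 25.03 in LSK, against 11.1 and 10.2 in MPP. Usp18, the protease that removes ISG15 and damps the type I receptor, passed in WT, with 43.1 and 47.8 CPM in LSK WT, against 13.1 and 18.5 in MPP WT (log2 difference 1.52, SE 0.39, adjusted p = 0.0153). The LSK libraries of both genes lay above the MPP libraries in every genotype.

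Of the 5 nucleic acid sensors, Eif2ak2 passed, in WT. It had 115 and 76.4 CPM in LSK WT, against 44.8 and 44.0 in MPP WT (log2 difference 1.10, SE 0.30, adjusted p = 0.0211). In Mut it had 32.3 and 50.8 CPM in LSK, against 55.5 and 45.2 in MPP, and these overlapped. Ddx58, which encodes the RNA sensor RIG-I, had 27.2 to 90.0 CPM over the LSK libraries, against 12.7 to 40.1 in MPP, and did not pass in any genotype. Ifih1, which encodes MDA5, Dhx58 and Zbp1, a sensor of Z-form nucleic acid, did not pass either.

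In the oligoadenylate synthetase family, Oasl2 passed in KO and WT. It had 126 and 81.9 CPM in LSK KO, against 10.4 and 10.1 in MPP KO, a 10.2-fold difference (log2 difference 3.35, SE 0.49, adjusted p = 0.00104). In LSK WT it had 28.7 and 80.1 CPM, against 8.66 and 15.4 in MPP WT (log2 difference 2.18, SE 0.47, adjusted p = 0.0066). Oas2 passed in KO, with 45.4 and 60.6 CPM in LSK KO, against 2.502 and 4.99 in MPP KO (log2 difference 3.82, SE 1.15, adjusted p = 0.046). LSK libraries lay above MPP libraries in every genotype for both genes. The call of Oas2 was lost when any of 8 of the 12 libraries was left out. Oas1a, Oas3 and Oasl1 did not pass in any genotype, and no gene of the IFIT family did. Ifit1, which binds RNA that lacks cap methylation, had 0 counts in 1 library each of LSK WT, MPP KO and MPP Mut.

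Of the 7 GTPases, Iigp1, which attacks the vacuoles of intracellular parasites, passed in KO and WT. It had 38.1 and 36.6 CPM in LSK KO, against 1.33 and 4.37 in MPP KO, a 13.1-fold difference (log2 difference 3.71, SE 0.88, adjusted p = 0.0168). In LSK WT it had 49.2 and 11.6 CPM, against 0.999 and 4.20 in MPP WT (log2 difference 3.56, SE 0.88, adjusted p = 0.0133). In Mut its levels of 26.3 and 31.8 CPM in LSK lay above those of 5.44 and 8.55 in MPP but did not pass (adjusted p = 0.156). Ifi47 passed in opposite directions in KO and WT. It was higher in LSK KO, with 125 and 110.0 CPM, than in MPP KO, with 83.4 and 57.7 (log2 difference 0.74, SE 0.20, adjusted p = 0.0334). It was lower in LSK WT, with 55.5 and 53.8 CPM, than in MPP WT, with 99.0 and 101 (log2 difference -0.87, SE 0.21, adjusted p = 0.0105), where spike-in scaling gave 3.32. The call in KO held in 3 of 12 fits with a library left out, and the call in WT was lost without MPP WT replicate 2 and when only the WT groups were fitted. Mx1, Mx2, Igtp, Irgm1 and Irgm2 did not pass in any genotype.

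Among the PYHIN genes, Ifi203 was higher in LSK in all 3 genotypes, and each of these calls held in all 12 fits that left out 1 library. It had 171 and 158 CPM in LSK KO, against 23.3 and 28.3 in MPP KO, a 6.38-fold difference (log2 difference 2.67, SE 0.27, adjusted p = 9.83e-05). In LSK Mut it had 88.6 and 106 CPM, against 23.6 and 18.8 in MPP Mut, and the log2 difference was 2.20 (SE 0.27, adjusted p = 0.000504). In LSK WT it had 176 and 147 CPM, against 26.8 and 44.0 in MPP WT, and the log2 difference was 2.19 (SE 0.27, adjusted p = 0.0002). Ifi209, its neighbour, was lower in LSK WT, with 0 and 0.797 CPM, than in MPP WT, with 35.8 and 19.7 (log2 difference -5.99, SE 0.93, adjusted p = 0.000904). It had 21.2 and 16.9 CPM in LSK KO, against 14.0 and 19.7 in MPP KO, and 45.4 and 37.8 in LSK Mut, against 22.9 and 59.2 in MPP Mut, with groups that overlapped in both. Under spike-in scaling the WT difference of Ifi209 was -1.75 (adjusted p = 0.0749), and the call was also lost when only the WT groups were fitted. The LSK WT libraries held 0 and 10 counts of Ifi209. Ifit1 had 192 and 0 counts in that pair, so a library can miss a gene, and the size of the Ifi209 difference is not firm. Ifi204 did not pass in any genotype.

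Parp14, Parp9 and Dtx3l encode ADP-ribosyltransferases and a ubiquitin ligase that partners PARP9. Parp14 was higher in LSK in all 3 genotypes. It had 56.7 and 45.3 CPM in LSK KO, against 14.7 and 8.82 in MPP KO, a 4.33-fold difference (log2 difference 2.11, SE 0.42, adjusted p = 0.00662). The log2 difference was 2.27 in Mut (SE 0.42, adjusted p = 0.00677) and 2.06 in WT (SE 0.42, adjusted p = 0.0048). Parp9 passed in WT, with 48.7 and 71.4 CPM in LSK WT, against 25.2 and 21.3 in MPP WT (log2 difference 1.37, SE 0.37, adjusted p = 0.0216). Dtx3l, which lies head to head with Parp9, did not pass in any genotype.

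Of the remaining 10 effectors, Ifi27, Rtp4 and Xaf1 were higher in LSK in all 3 genotypes. Ifi27 had 335 and 329.9 CPM in LSK KO, 238 and 231 in LSK Mut and 247 and 251 in LSK WT, against 135 and 114 in MPP KO, 99.3 and 100.4 in MPP Mut and 96.4 and 114 in MPP WT. Its log2 difference was 1.42 in KO (SE 0.14, adjusted p = 6.92e-05), 1.23 in Mut (SE 0.14, adjusted p = 0.000261) and 1.24 in WT (SE 0.14, adjusted p = 9.79e-05), and no library left out ended these calls. Rtp4 had 45.6 and 59.0 CPM in LSK KO, 68.9 and 57.3 in LSK Mut and 24.0 and 26.7 in LSK WT, against 7.58 and 9.91 in MPP KO, 13.3 and 6.84 in MPP Mut and 8.39 and 9.51 in MPP WT. The difference was 5.98-fold in KO (adjusted p = 0.00188), 6.24-fold in Mut (adjusted p = 0.00253) and 2.83-fold in WT (adjusted p = 0.0202). Xaf1, which antagonises an inhibitor of caspases, had log2 differences of 1.75 in KO, 1.47 in Mut and 1.83 in WT, with adjusted p-values of 0.0165, 0.0496 and 0.00858. Its call in Mut held in 2 of 12 fits with a library left out.

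Ifi44 passed in KO and WT. It had 90.2 and 94.2 CPM in LSK KO, against 5.004 and 3.20 in MPP KO, a 22.4-fold difference (log2 difference 4.49, SE 0.59, adjusted p = 0.000483). In LSK WT it had 16.2 and 55.3 CPM, against 8.73 and 9.81 in MPP WT (log2 difference 1.95, SE 0.53, adjusted p = 0.0209). Trim30a, a TRIM protein that restrains signalling from Toll-like receptors in mouse, passed in KO (log2 difference 1.11, SE 0.26, adjusted p = 0.0171) and WT (log2 difference 0.81, SE 0.26, adjusted p = 0.0469). Its call in WT held in 4 of 12 fits with a library left out, and was lost under the replicate block and when only the WT groups were fitted. Its levels ran from 76.1 to 116 CPM in LSK, against 37.4 to 53.2 in MPP, without overlap.

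Isg20 ran the other way, and all 6 of its LSK libraries lay below all 6 MPP libraries, as in 11.1% of all genes. It had 55.3 and 26.0 CPM in LSK KO, against 133 and 116 in MPP KO (log2 difference -1.61, SE 0.38, adjusted p = 0.0156), and 2.99 under spike-in scaling. In Mut it had 38.4 and 38.2 CPM in LSK, against 90.1 and 96.9 in MPP, and in WT 44.9 and 22.5 in LSK, against 68.9 and 63.6 in MPP. Neither of these passed the test. Rsad2, which encodes viperin, its neighbour Cmpk2, Bst2 and Ifi35 did not pass in any genotype.

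**Figure D5:**
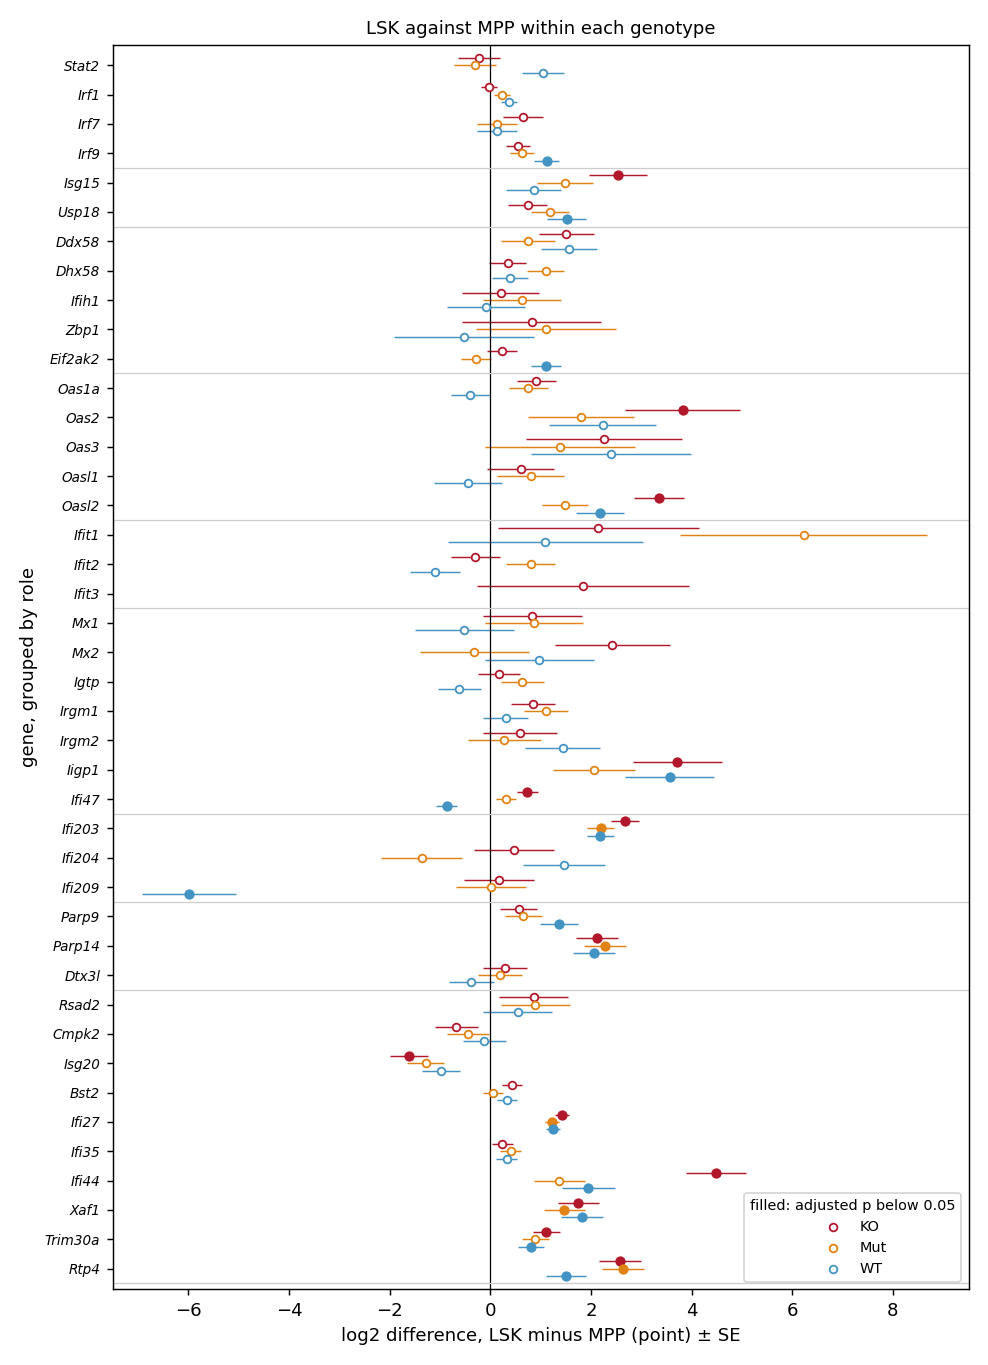
Fitted log2 difference of LSK from MPP (points) with its standard error (bars) within KO, Mut and WT, 42 genes by role; filled points have an adjusted p below 0.05, and differences of Ifit3 against a group with 0 counts are left out. Ifi203, Ifi27, Xaf1, Rtp4 and Parp14 have 3 filled points to the right of 0, and Ifi209 lies at -5.99 in WT.

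Other genes of the pathway were read from lists of ligands, of receptors and kinases, and of further interferon-stimulated genes that do not overlap the 42. Of the 11 interferon ligand genes, 1 passed the filter in the fit of all libraries, Ifng, which encodes interferon gamma. It had 0 to 0.864 CPM in LSK, against 12.3 to 18.7 in MPP, and its libraries did not overlap. T and NK cell markers, whose cells are a known source of Ifng, summed to 340.4 to 503 CPM in LSK, against 1189 to 1602 in MPP. Of the 10 genes on that list 1 to 6 were at 0 in LSK libraries, against 0 or 1 in MPP libraries, and 6 of 9 tested were called lower in LSK in each genotype. Their part in the Ifng difference was not tested. Of the 11 receptors and kinases, 10 were tested, and Ifngr1, a chain of the interferon gamma receptor, was lower in LSK in KO (log2 difference -2.14), Mut (-1.38) and WT (-1.93). Ifngr1 had 101 to 207 CPM in LSK, against 432 to 534 in MPP. Called higher in LSK were 0 of the 10 in KO, 1 in Mut and 1 in WT. Their median log2 difference was 0.05 in KO, 0.12 in Mut and -0.30 in WT. None of the 10 passed the test in a genotype comparison within a population. A further list of 50 interferon-stimulated genes had 46 tested between populations, of which 13 were higher and 2 lower in LSK in KO, 12 and 3 in Mut, and 14 and 5 in WT. Of all genes, 7.03% were called higher and 8.14% lower in KO, 3.55% and 5.21% in Mut, and 10.2% and 13.7% in WT.

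Between genotypes, the further list had 42 genes tested in LSK, which are not the 42 above, and 45 in MPP. For Mut against WT in LSK, 2 were called higher and 1 lower, against 0.539% and 0.737% of all genes. For KO against Mut in MPP, 2 were called lower, against 0.239% of all genes called either way. In the other 4 comparisons edgeR called none (0.0456% to 0.363% of all genes). At an unadjusted p below 0.05 there were 11 in LSK KO against WT (1811 of all 13170 genes) and 5 in LSK KO against Mut (4.24%). There were 6 in MPP KO against WT (8.47%) and 10 in MPP Mut against WT (9.75%). B2m, the light chain of MHC class I, had 3415 and 3446 CPM in LSK Mut, against 1653 and 1854 in LSK WT (log2 difference 0.95). Ly6e had 1375 and 1258 CPM in LSK Mut, against 844 and 926 in LSK WT (log2 difference 0.55). Mndal, the PYHIN gene that shares sequence with Ifi203 and Ifi204, was lower, with 35.5 and 53.2 CPM in LSK Mut, against 145 and 138 in LSK WT (log2 difference -1.69). In MPP, Ifitm1, a membrane protein that hinders virus entry, had 141 and 128 CPM in KO, against 290.2 and 310.2 in Mut (log2 difference -1.16). B2m had 1921 and 1902 CPM in MPP KO, against 2365 and 2476 in MPP Mut (log2 difference -0.34). The KO effect was higher in LSK than in MPP for 4 of 46 genes of the list (B2m, Ifitm1, Irf8 and Ly6e) and the Mut effect for 3 (B2m, Irf8 and Ly6e). Of all genes, 0.727% and 2.53% were called in these interactions, counting both directions.

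Dendritic cells express many of these genes. Their markers, leaving out Bst2 as one of the 42, summed to 420.2 and 359 CPM in LSK KO, 519 and 515 in LSK Mut and 269 and 358 in LSK WT. Of these 12 genes, Cd74 and H2-Ab1 were called higher in LSK Mut than in LSK WT and none in LSK KO. At 0 were 2 and 4 of them in LSK KO, 3 and 4 in LSK Mut and 8 and 7 in LSK WT, and Siglech, which marks plasmacytoid dendritic cells, had 0 counts in both LSK WT libraries, against 0.108 to 5.67 CPM in KO and Mut. T and NK cell markers summed to 463 and 469.5 CPM in LSK KO, 503 and 479 in LSK Mut and 340.4 and 364 in LSK WT. Monocyte and macrophage markers summed to 103 and 63.3 CPM in LSK KO, 84.0 and 99.7 in LSK Mut and 85.6 and 113 in LSK WT. The part of these cells in the LSK differences was not tested.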

How the data were processed

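RNA of LSK and MPP cells was sequenced in 12 libraries, 2 technical replicates for each of KO, Mut and WT in each population. The submitters' processing notes name Trim Galore 0.4.1, TopHat2 2.0.13, HTSeq 0.6.1, Cufflinks and the build mm10, and per the labels' design text the first trimmed the reads and the second mapped them. The annotation and strand setting are not given in the sources used here. The authors deposited raw counts per gene symbol in one table per population, with 24630 rows, of which 92 are spike-ins and 24538 genes, and the columns are whole numbers that sum to different totals. In the MPP data, 2 column titles carry the number of library 3, and the one ending in KO-2 was taken as MPP KO replicate 2, which no other column matches.

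Genes were filtered with filterByExpr (minimum count 10, minimum total 15), scaled by TMM without the spike-ins and tested with edgeR 4.0.16 in R 4.3.3 (quasi-likelihood F test, two-sided, Benjamini-Hochberg adjustment over all genes tested, call at 0.05). Genotypes were compared within a population in a fit of its 6 libraries, which tested 13170 genes in LSK and 12947 in MPP on 3 residual degrees of freedom. LSK against MPP and the interactions came from a fit of all 12 libraries, which tested 14033 genes on 6. Each SE from edgeR was the absolute log2 difference divided by the square root of its F statistic. It is rough where a group is near 0 counts. CPM were computed on TMM-scaled totals of all 12 libraries, and 3 counts served as the limit of detection where a gene had none. That limit covers counting error only, as no molecular identifiers are stated. Simulated counts, with spreads taken from these data, served to check the code only and say nothing on the calls of low-count genes. Alternatives were DESeq2 1.42.0, other scalings, no filter, the replicate block, a fit of the 2 groups compared and each library left out. The members, lists and tests were chosen with earlier results of these data known.

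Where members were called, up to 6 in each direction by fitted difference were named, and up to 2 more by level. Where none was called, up to 4 whose groups did not overlap were named, by lowest p, as values. Members with 0 to 3 counts in one group were named wherever the other group held at least 100. Other members are named for their level or, with values seen, to account for all 42. Gene positions came from GENCODE M21 (GRCm38), which matched all 42, and promoters from RefSeq (GRCm38.p6).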

Additional observations from a re-analysis of the deposited data

Results flagged for a closer look

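A test of the difference between the populations singled out 3 values. The KO effect on Ifi47 was larger in LSK than in MPP by 1.60 log2 units (SE 0.29, adjusted p = 0.0411, edgeR). The KO effect on Ifi209 was larger in LSK than in MPP by 6.16 log2 units (SE 1.15, adjusted p = 0.0434, edgeR), and the Mut effect on Ifi209 by 6.01 (SE 1.14, adjusted p = 0.0218, edgeR). The LSK WT libraries held 0 and 10 counts of Ifi209. With 2 libraries in a group, no library was tested as an outlier.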

How the results depend on the processing

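The numbers of the 42 genes called on the main settings were 0 for KO against WT in LSK, 2 for Mut against WT in LSK, 0 for the other 4 genotype comparisons, 13, 5 and 15 for LSK against MPP in KO, Mut and WT, and 2, 1 and 0 for the interactions (KO to WT, Mut to WT, KO to Mut). RLE scaling kept each of them within 1.5 times. With DESeq2, LSK KO against WT had 3, LSK Mut against WT 8, LSK KO against Mut 1, MPP KO against WT 2, LSK against MPP in Mut 11, and the Mut to WT and KO to Mut interactions 4 and 1. DESeq2 called 15.8% of all genes for LSK against MPP in Mut and 7.59% for the Mut to WT interaction. Its shares for the other comparisons in that list are given with their results above. Without the filter on low counts, LSK KO against WT had 1, MPP KO against WT 2, LSK against MPP in Mut 10, and the last 2 interactions 3 and 1. The shares of all genes called were 0.312%, 1.19%, 10.1%, 3.89% and 0.247%, in that order. With spike-in scaling, LSK KO against WT had 1 (0.539% of all genes), LSK Mut against WT 12 (22.8%), MPP Mut against WT 4 (17.7%) and MPP KO against Mut 9 (25.1%). LSK against MPP had 42 in KO (85.6%), 42 in Mut (89.6%) and 40 in WT (82.3%) with spike-in scaling. The interactions of KO and of Mut against WT had 0 (0.0143%) and 21 (38.7%) with spike-in scaling. In LSK the all-gene median shifted under it by 0.51 (KO to WT), 1.10 (Mut to WT) and -0.59 (KO to Mut). It turned the direction of Ifi27 in LSK KO against Mut (-0.084), of Isg20 in MPP Mut against WT (-0.088) and in LSK against MPP in KO (2.99), and of Ifi47 in LSK against MPP in WT (3.32). With only the groups compared, LSK Mut against WT had 0 (0.0683% of all genes), and LSK against MPP had 10 in Mut (12.2%) and 2 in WT (6.96%). The fit without both LSK WT libraries gave 12 for LSK against MPP in Mut (16.1%) and 1 for the KO against Mut interaction (0.214%). That fit and the one between populations with only the groups compared were chosen after seeing the data.

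Samples of a population that share a replicate number did not deviate together (correlations of -0.05 to 0.04 between its genotypes), so the number was not taken as a pairing. Whether it pairs LSK with MPP libraries was not examined. With the number as a replicate block, LSK Mut against WT and the KO against WT interaction had 0 calls each (0.266% and 0.242% of all genes). LSK against MPP had 12 in KO (13.4%), 5 in Mut (7.78%) and 14 in WT (22.3%) under the block.

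Leaving out one library at a time gave 0 to 11 calls for LSK KO against WT, 0 to 12 for LSK Mut against WT, 6 to 14, 3 to 12 and 6 to 19 for LSK against MPP in KO, Mut and WT, and 0 to 4, 0 to 6 and 0 to 1 for the 3 interactions. For LSK KO against Mut and the MPP genotype comparisons it gave 0 throughout. The KO to Mut interaction of Ifit3, which has 0 counts in MPP Mut and so no defined size, was fitted at -9.26 (SE 4.30) to 0.21 (SE 452), the value without MPP KO replicate 2, and nothing was read from it. The causes were not tested. Where a group was left with a lone library, its spread was taken to be that of the other groups. In every comparison where the number of calls varied, the highest number came from a fit without an LSK WT library. More of all genes were called in those fits than on the main settings, so the rise was not particular to the interferon-stimulated genes. Calls at this depth rest on 2 technical libraries of a pool, and Ifit1, Ifit3, Oas3, Ifi209 and Zbp1 had 0 counts in at least 1 library.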
